A study of Mus musculus with 8 samples.

Results

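The genes described here are 9 genes of liver glucose handling: Pcx, Pck1, Fbp1, G6pc, Slc37a4, Gys2, Pygl, Pklr and Slc2a2. They were taken by symbol from a table of 24547 genes, each symbol matched 1 row, and all 9 passed the filter on low counts. RNA sequencing was done on liver from ICR mice, an outbred strain, without other genetic change named in the labels. Treated mice were given Psoraleae Fructus decoction at high dose, made from fruits of the plant Psoralea corylifolia, into the stomach for 30 days. The control mice are labelled only as controls, and saline is the other agent the labels name. There were 4 libraries per group. The labels give no sex, age, dose by mass, feeding state or hour of collection, and do not tie libraries to animals, so the spread behind each p-value is that of the libraries and may be technical. Library totals ran from 15864399 to 20159132 counts, and the members' counts from 745 (Pklr in control 2) to 79596 (Pck1 in control 1).

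The liver makes glucose in fasting and stores it after a meal. In gluconeogenesis, pyruvate carboxylase (Pcx) turns pyruvate into oxaloacetate, phosphoenolpyruvate carboxykinase (Pck1) turns that into phosphoenolpyruvate, and fructose bisphosphatase (Fbp1) carries out a later irreversible step. The path ends where the transporter encoded by Slc37a4 brings glucose 6-phosphate into the endoplasmic reticulum and the catalytic subunit G6pc releases free glucose. Glycogen synthase (Gys2) and glycogen phosphorylase (Pygl) build and break down the store, liver pyruvate kinase (Pklr) runs the last step of glycolysis, and Slc2a2 encodes GLUT2, the main glucose carrier of the hepatocyte membrane. Glucagon and glucocorticoids are known to raise Pck1 and G6pc transcription and insulin to lower it, while Pklr rises with carbohydrate feeding.

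The sequences just upstream of Fbp1 and Pcx are shown because these genes rose, and those of Pck1 and G6pc because both were low in 1 control library. RefSeq's table of start sites on GRCm38.p6 held 8 of the 9 members (all but Gys2), with 12 windows in all. The 250 bases before each start were searched for 10 motifs on both strands. For Pck1 and G6pc the RefSeq start lies inside the gene span given below, which comes from the annotation GENCODE M21. Part of the window shown for each thus lies within that span. Matches are in capitals, and each line reads 5′ to 3′ on the gene's strand.
Fbp1 (chr13:62888283-62888532, minus strand): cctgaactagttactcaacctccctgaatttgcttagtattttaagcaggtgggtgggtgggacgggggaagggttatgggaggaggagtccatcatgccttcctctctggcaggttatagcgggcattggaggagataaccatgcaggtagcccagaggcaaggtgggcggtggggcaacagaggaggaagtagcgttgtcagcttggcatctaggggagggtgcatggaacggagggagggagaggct
Pcx (chr19:4510222-4510471, plus strand): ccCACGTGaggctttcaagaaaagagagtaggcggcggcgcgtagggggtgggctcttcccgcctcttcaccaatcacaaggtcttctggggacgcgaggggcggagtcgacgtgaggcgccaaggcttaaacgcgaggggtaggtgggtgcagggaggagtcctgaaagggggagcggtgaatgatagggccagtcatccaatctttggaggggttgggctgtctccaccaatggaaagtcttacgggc
Pck1 (chr2:173152823-173153072, plus strand): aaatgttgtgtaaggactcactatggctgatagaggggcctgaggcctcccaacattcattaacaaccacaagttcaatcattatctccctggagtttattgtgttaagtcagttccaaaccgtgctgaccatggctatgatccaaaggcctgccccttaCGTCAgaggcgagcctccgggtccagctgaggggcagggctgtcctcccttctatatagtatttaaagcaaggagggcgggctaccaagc
G6pc (chr11:101367466-101367715, plus strand): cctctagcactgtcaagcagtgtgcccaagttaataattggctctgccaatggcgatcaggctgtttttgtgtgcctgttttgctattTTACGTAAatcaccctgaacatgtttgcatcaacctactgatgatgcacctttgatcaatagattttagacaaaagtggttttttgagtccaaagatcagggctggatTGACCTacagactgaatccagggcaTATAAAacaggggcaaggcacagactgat
The motifs were the cyclic AMP response element TGACGTCA and its core TGACG, the E-box CACGTG, the forkhead site GTAAACA, the C/EBP site TTGCNNAA, the D-box TTANGTAA, the nuclear receptor motif AGGTCA, the HNF4 site CAAAGTCCA, the HNF1 palindrome and TATAAA. The core lies within the full cyclic AMP element, so one place could match both. In Pck1 the core matched 90 to 86 bases before the start, a motif held by 17.8% of the 32851 windows of that length. In G6pc a D-box lay 162 to 155 bases before the start (2.06% of windows), an AGGTCA on the other strand 54 to 49 bases before it (14.0%) and TATAAA 29 to 24 bases before it (12.4%). The upstream Pcx window held 1 E-box, 248 to 243 bases before the start (6.02%). No listed motif was found in the Fbp1 window or in the window of the other Pcx start. A match of letters is a description only and does not show binding.

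In treated livers 3 of the 9 genes rose and none fell by the test over all genes. Fbp1 rose 2.01-fold, Gys2 1.66-fold and Pcx 1.43-fold. G6pc was lower in every treated library than in 3 of the 4 controls, while control 4 lay among the treated libraries, and it did not pass. Pck1, Slc37a4, Pygl, Pklr and Slc2a2 did not pass either, and in each the groups overlapped. Calls were made with edgeR's quasi-likelihood test at an adjusted p (Benjamini-Hochberg) under 0.05, and 5.46% of the 12861 tested genes were called higher and 3.75% lower (9.21% in all). Groups did not overlap for the 3 called members, all higher in treated, against 10.2% of all tested genes higher without overlap. The median log2 fold change of the 9 was 0.14 against -0.037 over all tested genes. In bulk liver RNA, fewer cells of a type and less RNA per cell cannot be told apart.

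**Figure D1:**
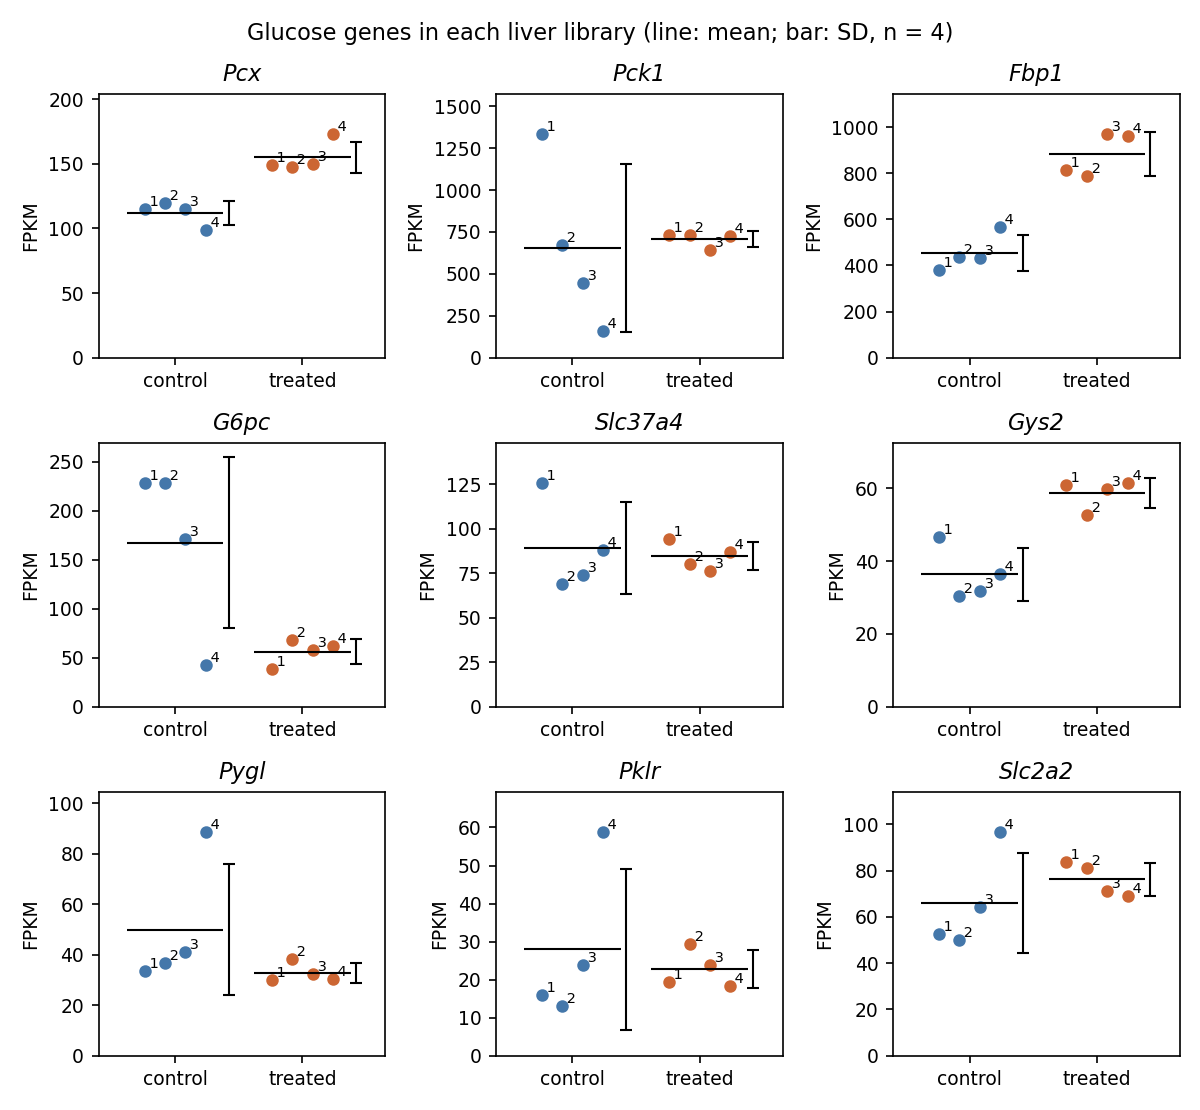
FPKM (counts scaled for gene length and library total) of the 9 genes in each library, with replicate numbers beside the points, the group mean as a line and the SD as a bar (n = 4 per group). Fbp1, Gys2 and Pcx lie higher in all treated libraries, while control 4 stands low for Pck1 and G6pc and high for Pygl, Pklr and Slc2a2.

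Control 4 differed from the other controls in genes of feeding and of the clock, chosen here after their values were seen. Igfbp1, a gene induced in fasting, was at 9.97 CPM (counts scaled to library totals with TMM factors) in control 4 against 133 to 632 in the other controls and 32.0 to 53.4 in treated libraries. Scd1, a desaturase gene induced by feeding, was at 13700 CPM in control 4 against 209 to 415 in the other controls and 348 to 908 in treated libraries. Dbp, a clock output gene with a steep daily rhythm, was at 35.6 CPM in control 4, at 0.16 to 2.04 in the other controls and at 37.99 to 79.4 in treated libraries. Not all clock genes placed control 4 near the treated libraries: Per2 was at 14.2 CPM in control 4, 7.27 to 13.7 in the other controls and 19.6 to 33.6 in treated libraries. Ciart, at 2.89 CPM in control 4, was inside the range of the other controls (0.36 to 7.09) and below the treated libraries (7.95 to 19.8). The part of feeding and of the hour of collection in the results below was not tested.

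Pcx, pyruvate carboxylase of the mitochondrion (ENSMUSG00000024892, chromosome 19, 4510472 to 4621752, GRCm38), stood at 115, 120, 115 and 98.5 FPKM in controls 1 to 4. Treated libraries 1 to 4 held 149, 148, 150 and 173 FPKM. All treated values were above all controls, and the spread within each group was small. In CPM the means were 513 in controls and 731 in treated libraries, a log2 fold change of 0.51 (SE 0.14, adjusted p = 0.0499 by edgeR), and 0.47 without control 4 (adjusted p = 0.0561). The call stood at the threshold: it was lost in each of the 8 leave-out fits (1 library left out in each), with log2 fold changes of 0.45 to 0.58. Once gene length and GC content were corrected for, the log2 fold change was 0.37 (adjusted p = 0.153).

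Pck1, the enzyme that commits oxaloacetate to glucose (ENSMUSG00000027513, chromosome 2, 173153048 to 173159273), gave the widest range among controls. Controls 1 to 4 held 1336, 671, 448 and 159 FPKM, and treated libraries 1 to 4 held 734, 732, 640 and 726. The treated libraries thus lay close together inside the control range, below control 1 and above controls 3 and 4. The coefficient of variation in CPM was 81.1% in controls and 4.23% in treated libraries, and 62.2% in controls without control 4. The group difference was 0.14 on the log2 scale (SE 0.52, adjusted p = 0.885 by edgeR), and -0.18 without control 4 and -0.35 without controls 2 and 4. A difference in mean of Pck1 was therefore not detectable against this spread, and its direction depended on the controls used.

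Fbp1 (ENSMUSG00000069805, chromosome 13, 62864753 to 62888282) showed the largest rise of the 9. Controls 1 to 4 held 382, 437, 434 and 567 FPKM, and treated libraries 1 to 4 held 814, 788, 971 and 962. The lowest treated library was above the highest control, which was control 4. In CPM the means were 764 ± 140 and 1535 ± 228 (SD, n = 4), with a log2 fold change of 1.01 (SE 0.18, adjusted p = 0.0142 by edgeR). Without control 4 it was 1.14 (adjusted p = 0.00491). Fbp1 kept its call in 7 of the 8 leave-out fits and missed it without treated library 3 (log2 0.93, adjusted p = 0.0577). It was also called after the length and GC correction (log2 0.90, adjusted p = 0.027).

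G6pc, the catalytic subunit that releases free glucose (ENSMUSG00000078650, chromosome 11, 101367561 to 101377903), pointed the other way. Controls 1, 2 and 3 held 228, 228 and 171 FPKM and control 4 held 42.3, while treated libraries 1 to 4 held 38.1, 68.1, 57.3 and 61.6. Control 4 thus lay among the treated libraries and the other 3 controls lay well above them. The log2 fold change was -1.52 (SE 0.46) and the adjusted p 0.0741 by edgeR, with all 8 libraries. Without control 4, G6pc was called lower, at -1.84 (SE 0.21, adjusted p = 0.0021), in a fit in which 8.45% of genes were called lower. It was called lower also without controls 2 and 4 (-1.83, adjusted p = 0.0063 by edgeR), in a fit with 3.44% of genes called lower. That fit too lacks control 4, the low control, so its call is not separate support. G6pc was called in none of the other 7 leave-out fits, which keep control 4, the log2 fold change lying between -1.58 and -1.29. With all libraries, DESeq2 called it lower (adjusted p = 0.0037), as it did 8.18% of genes, and so did limma-voom with quality weights (adjusted p = 0.0214), which called 7.25% of genes lower.

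Slc37a4, the transporter that feeds this enzyme (ENSMUSG00000032114, chromosome 9, 44396852 to 44402968), did not move with it. Controls 1 to 4 held 126, 68.6, 73.6 and 88.2 FPKM, and treated libraries 1 to 4 held 94.2, 80.3, 76.2 and 87.1. Control 1 was the highest library, and controls 2 and 3 lay just below the treated libraries. The log2 fold change was -0.050 (SE 0.22, adjusted p = 0.902 by edgeR), and 0.20 without control 1 (adjusted p = 0.428). Control 1 was also the highest library for Pck1 and the highest control for Gys2.

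Gys2, the liver glycogen synthase (ENSMUSG00000030244, chromosome 6, 142422613 to 142473109), rose. Controls 1 to 4 held 46.6, 30.5, 31.8 and 36.4 FPKM, and treated libraries 1 to 4 held 61.0, 52.8, 59.8 and 61.5. All treated values were above all controls. The log2 fold change was 0.73 (SE 0.18, adjusted p = 0.0357 by edgeR) and 0.74 without control 4. Gys2 was called in 2 of the 8 leave-out fits, those without control 1 (0.91) and without control 4, and its log2 fold change in the 8 was 0.63 to 0.91. After the length and GC correction it was 0.75 with an adjusted p of 0.0572.

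Pygl, the liver glycogen phosphorylase (ENSMUSG00000021069, chromosome 12, 70190811 to 70231488), stood at 33.5, 36.8, 40.9 and 88.7 FPKM in controls 1 to 4. Treated libraries 1 to 4 held 29.9, 38.2, 32.5 and 30.5 FPKM. Control 4 was far above all other libraries, and the other controls overlapped the treated group. The log2 fold change of -0.58 (SE 0.30, adjusted p = 0.238 by edgeR) became -0.13 (SE 0.14, adjusted p = 0.553) when control 4 was left out.

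Pklr, which opposes gluconeogenesis at pyruvate (ENSMUSG00000041237, chromosome 3, 89136142 to 89146784), gave a like picture. Controls 1 to 4 held 15.9, 13.2, 23.9 and 58.9 FPKM, and treated libraries 1 to 4 held 19.5, 29.3, 23.9 and 18.3. Control 4 was the highest library and controls 1 and 2 were the lowest. The log2 fold change was -0.27 (SE 0.47, adjusted p = 0.737 by edgeR) with control 4 and 0.41 (SE 0.24, adjusted p = 0.265) without it, so the sign rested on that library. Of the exon bases of Pklr 22.0% are shared with exons of Hcn3 on the opposite strand, and the kit does not mark strand. Hcn3 itself was at 1.86 to 7.39 CPM against 38.5 to 192 for Pklr. No other member shared exon bases with another annotated gene.

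Slc2a2, which encodes GLUT2 (ENSMUSG00000027690, chromosome 3, 28697903 to 28731359), stood at 52.5, 49.8, 64.5 and 96.8 FPKM in controls 1 to 4. Treated libraries 1 to 4 held 83.6, 80.9, 71.4 and 68.9 FPKM. Every treated library was above controls 1 to 3 and below control 4. The log2 fold change was 0.24 (SE 0.22, adjusted p = 0.497 by edgeR), and 0.50 (SE 0.16, adjusted p = 0.0553) without control 4.

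**Figure D2:**
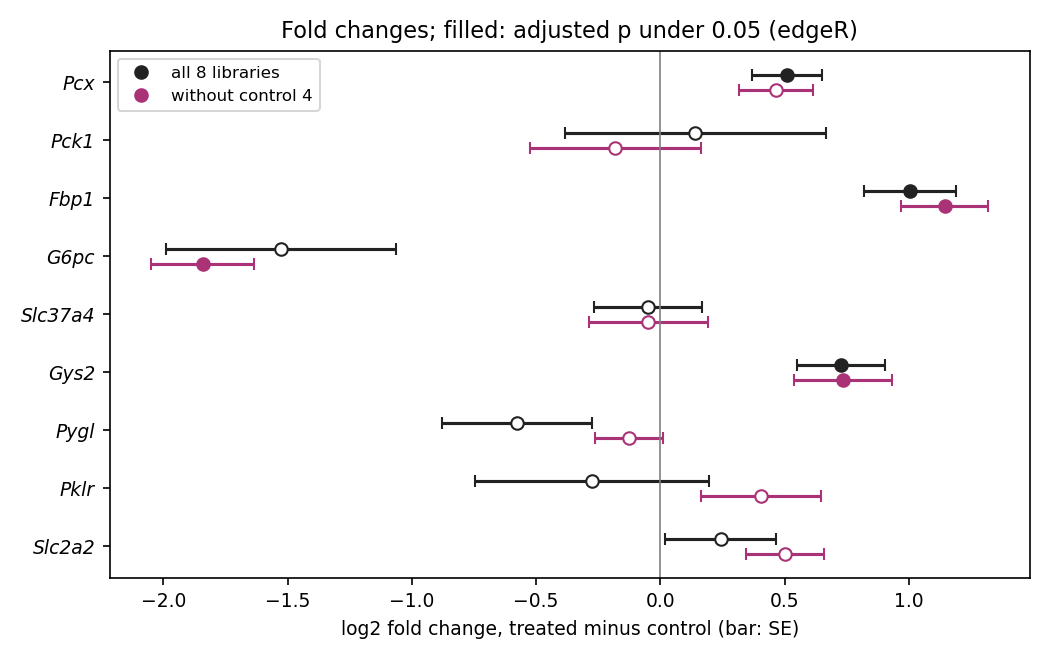
Log2 fold change of each gene, treated minus control, with all 8 libraries (black) and without control 4 (purple). Bars are standard errors and filled points have an adjusted p under 0.05 by edgeR. Without control 4, G6pc is called at -1.84, Pcx is not called, and Pck1 and Pklr change sign.

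Without control 4 the number of called members stayed at 3, but they were Fbp1, Gys2 and G6pc in place of Fbp1, Gys2 and Pcx. In that fit 17.8% of all tested genes were called. Control 4 departed from the mean of the other controls by -2.35 on the log2 scale for Pck1, -2.26 for G6pc, 1.74 for Pklr, 1.29 for Pygl and 0.83 for Slc2a2. For Gys2 and Slc37a4 the departure was 0.024 and -0.0047, and for Pcx and Fbp1 it was -0.21 and 0.48. Of 9226 genes at a mean level of 5 CPM or more, 99.0% departed less than Pck1, 98.8% less than G6pc and 97.8% less than Pklr.

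The spread within groups was also unequal. The coefficient of variation in CPM was lower in treated libraries for 8 of the 9 members, Pcx being the exception (8.24% in controls and 9.88% in treated), as it was for 67.8% of all tested genes. For Pklr it was 76.9% in controls and 19.7% in treated libraries, for Pygl 53.7% and 9.18%, and for G6pc 52.2% and 22.1%. Without control 4 it was lower in treated libraries for 6 members and for 57.8% of tested genes. In controls without control 4 it was 34.3% for Pklr, 10.9% for Pygl and 16.4% for G6pc. For G6pc that is below the value in treated libraries, and for Pygl it is close to it.

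The order of the levels per gene length differed between the groups. In treated libraries Fbp1 came first with 884 ± 96.2 FPKM (SD, n = 4), then Pck1 (708 ± 45.7) and Pcx (155 ± 12.2), and the ranges of these neighbours did not overlap. Slc37a4 (84.5) and Slc2a2 (76.2) overlapped each other, as did Gys2 (58.8) and G6pc (56.3), and G6pc overlapped Pygl (32.8). Pklr came last, at 22.8 FPKM, with a range below that of Pygl. In controls the order by mean was Pck1 (653 ± 501), Fbp1 (455 ± 78.8), G6pc (167 ± 87.6), Pcx (112 ± 9.25), Slc37a4 (89.0), Slc2a2 (65.9), Pygl (49.99), Gys2 (36.3) and Pklr (28.0). There the ranges of all neighbours overlapped except those of Fbp1 and G6pc.

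Ratios of FPKM set each enzyme beside the one that works against it, as a description with no test. Pck1 over Pklr gave log2 ratios of 6.39, 5.67, 4.23 and 1.43 in controls 1 to 4 and 4.64 to 5.31 in treated libraries, inside the control range. Gys2 over Pygl was 0.48, -0.27, -0.37 and -1.29 in controls 1 to 4. It was 1.03, 0.47, 0.88 and 1.01 in treated libraries 1 to 4, so that the groups overlapped only between control 1 and treated library 2. Fbp1 over Pfkl, the liver phosphofructokinase, was 6.71 to 7.22 in controls and 6.94 to 7.63 in treated libraries. There the groups overlapped. Both genes rose, and a rise in both cancels in part in their ratio.

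**Figure D3:**
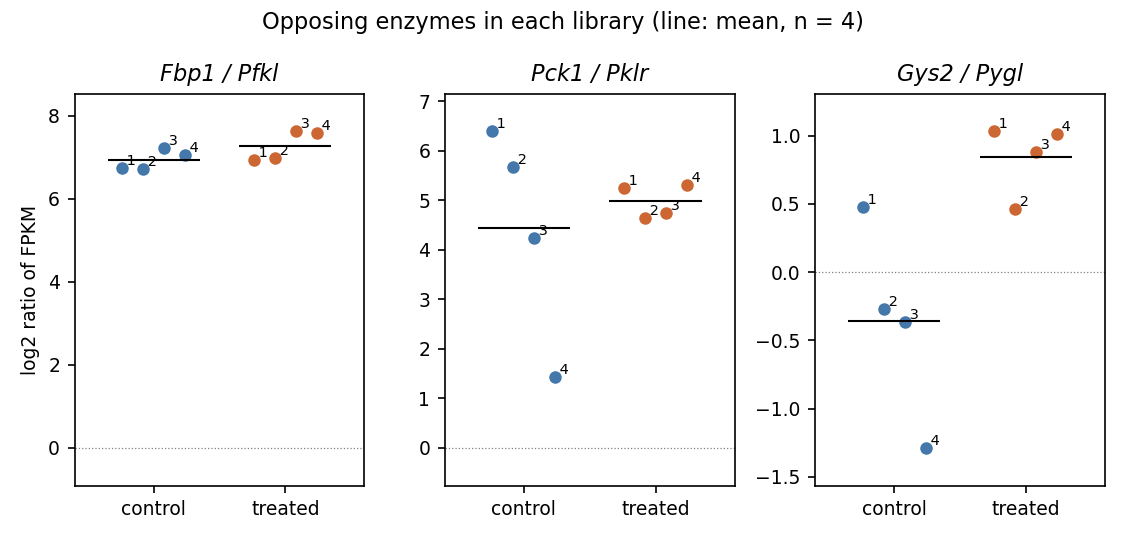
Log2 ratio of FPKM between opposing enzymes in each library, with replicate numbers beside the points and the group mean as a line (n = 4 per group). The ratio of Pck1 to Pklr is 1.43 in control 4 and 4.23 to 6.39 in the other controls, and that of Gys2 to Pygl is higher in treated libraries but for an overlap of control 1 with treated library 2.

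Paralogs of the members took a small part of the family level in most cases. Fbp1 made up at least 99.9% of the FPKM of Fbp1 and Fbp2 in every library, and Pck1 at least 99.8% of Pck1 and Pck2. Gys2 held 97.9 to 99.0% of the glycogen synthase level in controls and 99.3 to 99.6% in treated libraries. Pygl held 94.5 to 98.9% and 95.8 to 96.4% of the phosphorylases Pygl, Pygb and Pygm. G6pc held 97.8 to 99.4% of its family in controls and 95.4 to 98.0% in treated libraries. Pklr held 49.6 to 95.3% of the pyruvate kinase level in controls and 87.3 to 93.0% in treated libraries. The muscle-type gene Pkm, which many cells other than hepatocytes express, was at 2.81 to 13.4 FPKM in controls and 1.81 to 3.16 in treated libraries, and was not called (adjusted p = 0.23 by edgeR). Slc2a2 held 79.7 to 82.9% of the FPKM of the 8 listed Slc2a carrier genes in controls and 73.4 to 78.0% in treated libraries. Not all of these carry mainly glucose. Slc2a9, a urate and sugar carrier, was at 4.39 to 9.20 FPKM in controls and 11.0 to 12.3 in treated libraries.

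Of 115 other genes of glucose metabolism, 109 were tested, and 11 rose and 3 fell. Thus 12.8% were called, against 9.21% of all tested genes (5.46% higher and 3.75% lower). The counts by list below are small and are to be read beside these shares. The median log2 fold change of the 109 was 0.071, against -0.037 over all tested genes. Without control 4, 19 were called higher and 6 lower of 110, in a fit that called 17.8% of all tested genes. After the length and GC correction 5 were called higher and 1 lower, with 4.52% of all tested genes called.

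Among genes of glycogen, 2 of 21 rose and 1 fell. Ppp1r3b, a subunit that targets protein phosphatase to glycogen and so favours glycogen synthase, stood at 207, 126, 134 and 133 CPM in controls 1 to 4. Treated libraries 1 to 4 held 545, 398, 391 and 286 CPM, all above the highest control. Its log2 fold change was 1.43 (SE 0.23, adjusted p = 0.00942 by edgeR), and it was called in each of the 8 leave-out fits and after the correction. Stbd1, a glycogen-binding protein, rose by 1.20 on the log2 scale (SE 0.31, adjusted p = 0.0437 by edgeR), in 2 of the 8 leave-out fits and not after the correction (1.16, adjusted p = 0.0626). Gbe1, the branching enzyme that gives glycogen its tree form, fell from 107 to 54.5 CPM on average (log2 -0.97, SE 0.18, adjusted p = 0.0139 by edgeR). Gbe1 was called in each of the 8 leave-out fits, but not after the correction (-0.73, adjusted p = 0.0523). Ugp2, which makes the glucosyl donor, was not called, with a log2 fold change of 0.038 (SE 0.17).

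Among genes of gluconeogenesis and its substrates, 2 of 20 rose and 1 fell. Gpt, alanine aminotransferase, rose by 0.83 on the log2 scale (SE 0.21). The 2 subunits of the mitochondrial pyruvate carrier went apart: Mpc2 rose by 0.63 (SE 0.16) from 186 to 289 CPM, and Mpc1 fell by 0.62 (SE 0.15) from 13.1 to 8.498 CPM. Each of these 3 genes was called in 2 of the 8 leave-out fits, and after the correction Gpt was not called (0.58, adjusted p = 0.129 by edgeR). Got1, cytosolic aspartate aminotransferase, had means of 442 and 167 CPM and was not called (adjusted p = 0.189 by edgeR).

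Among 25 tested genes of glycolysis, Pfkl alone was called, higher by 0.66 on the log2 scale (SE 0.14), in 4 of the 8 leave-out fits and not after the correction (0.56, adjusted p = 0.0606 by edgeR). Pdk4, a kinase that shuts pyruvate dehydrogenase in fasting, was at 37.6, 106, 86.7 and 6.56 CPM in controls 1 to 4 and at 6.50 to 15.8 in treated libraries. As for G6pc, control 4 lay with the treated libraries; Pdk4 was not called with all libraries (adjusted p = 0.085 by edgeR) and was called lower without control 4.

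Among 14 tested genes of sugar transport, fructose and galactose, Galk1 and Slc2a9 rose and Slc37a1 fell. Galk1, galactokinase, rose by 1.37 on the log2 scale (SE 0.12), from 28.1 to 72.6 CPM on average, with an edgeR adjusted p of 0.00213, and was called in each of the 8 leave-out fits and after the correction (0.91). Slc2a9, a urate and sugar carrier, rose by 0.89 (SE 0.23) and was called in 1 of these 8 fits and not after the correction (0.91, adjusted p = 0.0753 by edgeR). Slc37a1, a relative of Slc37a4, fell by 1.49 (SE 0.39) at a low level, from 5.11 to 1.82 CPM, and was called in 2 of them and not after the correction (-1.52, adjusted p = 0.0505 by edgeR).

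Among 29 regulators of glucose output, 4 rose and none fell. Stk11, the kinase LKB1 upstream of AMPK, rose by 0.76 on the log2 scale (SE 0.10, adjusted p = 0.00534 by edgeR), and was called in each of the 8 leave-out fits and after the correction. Cebpa, a hepatocyte transcription factor, rose by 0.90 (SE 0.20), was called in 4 of these fits and was not called after the correction (0.50). Gcgr, the glucagon receptor, rose by 0.62 (SE 0.16), was called in 1 of 8 leave-out fits and was not called after the correction (0.41). Pik3r1, a regulatory subunit of the insulin-signalling lipid kinase, rose by 0.52 (SE 0.13) and was called in 3 of the 8 fits and after the correction (0.73). Ppargc1a, a coactivator of gluconeogenic genes, was at 45.9, 13.3, 8.80 and 10.9 CPM in controls 1 to 4 and at 8.74 to 17.95 in treated libraries. It was highest in control 1, as Pck1 was, and was not called (adjusted p = 0.46 by edgeR).

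**Figure D4:**
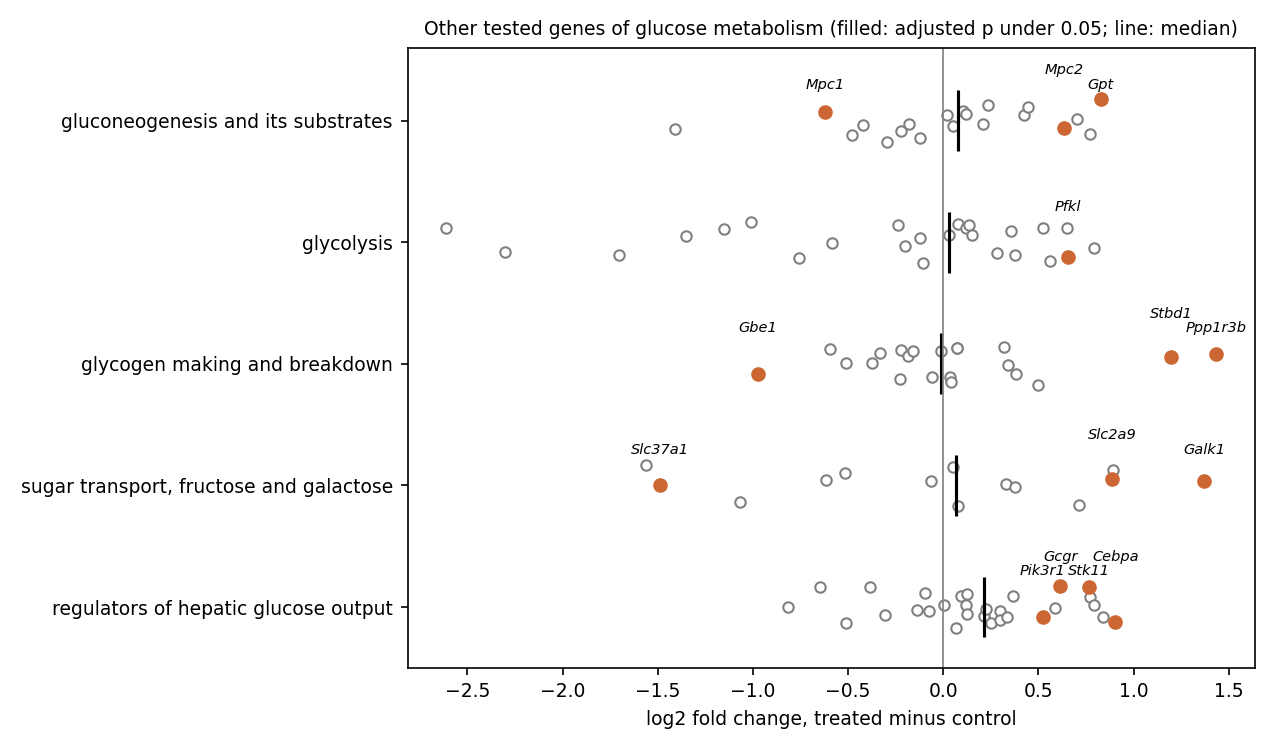
Log2 fold change, treated minus control, of the 109 other tested genes of glucose metabolism by list, with all 8 libraries. Filled points have an adjusted p under 0.05 by edgeR and are named, and black lines are list medians, from -0.012 for glycogen to 0.21 for regulators.

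The genes whose pattern over the 8 libraries was nearest to each called member were found by the root mean square difference of centred log2 CPM, among 8983 genes. Nearest to Fbp1 were Ndufb10 (0.070), Fkbp2 (0.088) and Cox5b (0.099). Nearest to Gys2 were Fau (0.099), Apoe (0.10) and Uqcrh (0.11). Nearest to Pcx were Sh2b1 (0.053), Zc3h7b (0.072) and Ccdc58 (0.091).

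Levels of markers were read beside these results. The 5 hepatocyte markers summed to 103700 to 148600 CPM in controls and 125100 to 142100 in treated libraries, with none called. Alb makes up most of that sum. Fgb, a fibrinogen chain, was at 3886 to 4303 CPM in treated libraries, below all controls (5539 to 5827), and was not called (log2 fold change -0.47, adjusted p = 0.0773 by edgeR). The 7 periportal markers, of the zone where gluconeogenesis is strongest, summed to 1077 to 1860 and 1631 to 2068 CPM, with Aldh1b1 called higher and Ctsc lower. The 7 pericentral markers summed to 7138 to 14030 and 12020 to 14330 CPM, with Rnf43 called higher. Cyp2e1 makes up most of that sum, with means of 7727 CPM in controls and 11220 in treated libraries. It was not called (adjusted p = 0.185 by edgeR). The 7 macrophage markers summed to 458 to 1118 CPM in controls, highest in control 2, and 294 to 593 in treated libraries, with Adgre1 and Timd4 called lower. The 5 T and NK cell markers summed to 7.51 to 20.9 and 3.17 to 5.89 CPM, and the 3 that were tested, Cd3g, Nkg7 and Il2rb, were called lower. Of the endothelial and stellate lists, Pecam1 and Pdgfra were called lower among 5 each. Of the 12 clock genes, Arntl, Npas2 and Cry1 were called lower and Per2 higher. Of 10 tested genes of fasting and feeding, Acacb alone was called, and it was lower. None of the tested markers of cholangiocytes (2 of 4), pancreas (1 of 3), intestine (1 of 3) or blood (3 of 3) was called. The tested pancreas marker, Cela1, was at 5.74 to 57.3 CPM in controls, highest in control 4, and at 9.30 to 17.7 in treated libraries. The other pancreas markers, Prss2 and Cpa1, were at 0 in all controls and at no more than 0.060 CPM in any treated library. The kidney marker Umod was at 0 in all libraries. The part of these in the members' values was not tested.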

How the data were processed

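Raw read counts per gene and FPKM values were taken from 1 table deposited by the authors, with 1 column of each per library. Trizol extraction, oligo-dT selection of mRNA and the NEBNext Ultra kit were used, per the labels' protocols. The build GRCm38 and the tools DESeq2 1.32.0, HTSeq 0.13.5 and HISAT2 are named, without their roles, per the submitters' processing notes. For the annotation release and the strand setting of counting, the entry is: not given in the sources used here. The deposited FPKM values are the deposited counts divided by a gene length and the library total, as checked on the values.

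Counts were filtered with filterByExpr (minimum count 10, minimum total 15), which left 12861 genes, scaled by TMM and tested with edgeR 4.0.16 (robust quasi-likelihood F test, R 4.3.3), treated against control with no covariate. P-values were adjusted over all tested genes, and standard errors come from the F statistic. On simulated counts of this comparison, 12678 genes were tested. The fit called 7.41% of 81 genes changed 1.5-fold, 45.3% of 53 changed 2-fold and 91.7% of 60 changed 4-fold. Of its 93 calls, 8 were false. The simulated spread followed the trend over gene level, was alike in both groups and held no library apart as control 4 was. The simulation also changed only 200 genes, while 1184 were called in the data. With 93 calls, an adjusted p under 0.05 asked there for a smaller unadjusted p than in the data. These shares are thus not those of the fit to the data, nor those for members with a wide spread in controls. Precision is set by 4 libraries per group. The lowest chi-square per degree of freedom between 2 libraries was 29.7, so no library was another one sequenced again. That value cannot tell whether 2 libraries were prepared from the same animal. Positions, exon overlaps and GC content came from GENCODE M21, which matched 24540 identifiers. Where a symbol had more than 1 row, the row of most counts was used.

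The members and lists were chosen with earlier results of these data known. Named genes are the members, up to 6 called genes per pathway list and the 3 genes nearest to each called member (mean of at least 5 CPM, pseudocount 1, no predicted genes). Other genes were chosen after their values were seen, and 1 planned pair of opposing enzymes is not reported here. Alternatives were DESeq2 size factors, library totals alone, no filter, a filter of 50 counts in 4 libraries, DESeq2 1.42.0, limma 3.58.1 (voom with quality weights, and log2 of FPKM plus 1 or 0.1 with a mean FPKM of at least 0.5 or no filter), a replicate block, a spline correction for length and GC content, and libraries left out.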

Additional observations from a re-analysis of the deposited data

Results flagged for a closer look

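In 18 groups of 4 values (9 genes in 2 groups), 2 held a library apart from the other 3 of its group, and chance alone does so in about 1 in 20 groups. Pygl in control 4 reached 615 CPM, while controls 1 to 3 held 229 to 281. G6pc in treated library 1 was at 92.7 CPM, against 148 to 158 in the other treated libraries. The rule was applied to CPM alone. In FPKM that library stood less far apart for G6pc, at 38.1 against 57.3 to 68.1.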

How the results depend on the processing

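Fbp1 kept its sign under all 20 alternatives and its call under 19, with log2 fold changes of 0.90 to 1.14. Gys2 kept its sign under all 20 and lost its call under 8, and Pcx kept its sign and lost its call under 14. G6pc kept its sign under all 20 and passed under 4. The count of called genes was 1184 and became 2213 with DESeq2, 2126 with voom, 581 with the length and GC correction and 480 with FPKM and no filter. In the same order of settings the other glucose genes called were 24, 23, 6 and 6, against 14, and the correction left 1 called member. With single libraries left out, called genes ran from 183 (without treated library 3) to 2330 (without control 4), called members from 0 to 3 and other glucose genes called from 4 to 25. The signs of small differences that did not pass changed as follows. Pck1 was at -0.0037 without control 3, -0.18 without control 4 and -0.35 without controls 2 and 4, and ran from -0.18 to 0.83 with single libraries left out. Pklr was at 0.098 with voom, 0.0030 with the replicate block, 0.41 without control 4 and 0.20 without controls 2 and 4, and ran from -0.52 to 0.41 with single libraries left out. Slc37a4 was at 0.053 with voom, 0.0043 with the replicate block, 0.20 without control 1 and 0.016 without treated library 2, and ran from -0.18 to 0.20 with single libraries left out. Across genes, which are not independent replicates, the rank correlation of the fold change was 0.309 with GC content and -0.241 with length. The cause of the changes between settings was not tested. The labels share replicate numbers only: same-numbered libraries had correlations of deviations of -0.012 to 0.18, and not every library correlated best with its own number. The replicate block gave 944 called genes, 2 called members (Pcx lost, adjusted p = 0.0876 by edgeR) and 12 other glucose genes called.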
